A study of Mus musculus with 4 samples.

Results

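A set of 9 regulators of zygotic genome activation, the step at which the embryo starts to transcribe its own genes, were followed in mouse 2-cell embryos. They were found in the deposited table by matching its Ensembl identifiers to the symbols Dppa2, Dppa4, Nfya, Nfyb, Nfyc, Nr5a2, Yap1, Tead4 and Rarg. All 9 were found, among 30049 genes in the table, each with 1 identifier. The embryos were wild type, from crosses between BDF1 mice (BDF1*BDF1 F2), and none carried an engineered allele. Control embryos were grown in KSOM, a culture medium for preimplantation embryos, and treated embryos in KSOM with 2% dimethyl sulfoxide (DMSO), both for 24 h from the zygote on. There are 2 libraries of each group, and 50 embryos were collected for each group. Whether the libraries came from separate cultures is not stated, so the p-values measure the spread between these libraries, which may be technical. Each library pools whole embryos, and a lower value cannot tell fewer embryos with the RNA from less RNA in each embryo.

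In the mouse, the fertilized egg carries RNA and protein stored in the oocyte, most of which is removed as the embryonic genome is switched on, in a minor and then a major wave that is complete by the end of the 2-cell stage. The regulators below are known from that switch or from the first lineage decisions that follow it. DPPA2 and DPPA4 are partner proteins that bind DNA through a SAP domain and activate 2-cell genes in embryonic stem cells. NF-Y is a trimer of NF-YA, which reads the CCAAT box, with NF-YB and NF-YC, which fold like histones. NR5A2 is a nuclear receptor, RARG is a receptor for retinoic acid, and YAP1 is the coactivator of the Hippo pathway, which lacks a DNA-binding domain of its own and works through TEAD4.

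The values are TPM, in which the reads of a gene are scaled by transcript length and library total, so that levels can be set side by side between genes. They keep no depth, and the depth of these libraries is unknown here. Where 2 values are given for a group, they are those of replicate 1 and then replicate 2. The values in the table sum to 768174 and 780527 TPM for control embryos and, after DMSO, to 772487 and 799166 TPM. A complete set of TPM sums to the same, larger total in every library, so part of the signal is missing from this table. Which transcripts are missing is not known here, and the level of a gene may be a partial sum. The 20 most abundant genes took 22.1% and 23.6% of the sum in control embryos, against 29.4% and 35.1% after DMSO. TPM is a share, so a rise or fall is relative to the rest of the library. The amount of RNA per embryo was not measured. A value at or near 0 can be a failed estimate in this table. Genes that every cell uses were looked up after the values were seen. Among them Gapdh is listed at no less than 73.2 TPM and Eef1a1 at no less than 28.7 TPM in any library. Actg1 and Pgk1, however, are listed at 0 in both DMSO libraries, and Polr2a at no more than 0.860 TPM in any library. Actb is listed at 1.09 and 0.706 TPM in control embryos, against 8.58 and 0 TPM after DMSO. For that reason a low gene is given below only as listed at its value, which does not show that its RNA was absent. The 12038 genes that averaged 1 TPM or more, the 9 regulators among them, entered a limma fit on log2(TPM + 1), whose standard errors (SE) are given below, and a gene is said to have risen or fallen only when its p-value adjusted over these 12038 genes was under 0.05.

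Of the 9 regulators, Dppa2 and Dppa4 fell, Nfya rose, and 6 did not pass the test. Over all genes tested, 20.5% passed, 14.1% being lower and 6.42% higher in DMSO-treated embryos. Nr5a2 was the nearest to the threshold on the other side, with an adjusted p of 0.0516. Fold changes were below 0 for 6 of the 9 and above 0 for 3, beside 53.2% and 46.8% of all genes tested, with a median of -0.35 on the log2(TPM + 1) scale, beside -0.09 over all genes tested. That median was -0.06 under quantile normalization and -0.19 without control replicate 1. Rarg averaged under 1 TPM in control embryos and was tested only because of its level after DMSO, and over the other 8 the median was -0.48. The libraries of the 2 groups did not overlap for 7 of the 9, as for 69.8% of all genes tested. With no filter on low values all 3 calls were lost, at an adjusted p of 0.102 for each with limma. The calls also depend on single libraries. With limma refitted without control replicate 1, without control replicate 2 or without DMSO replicate 1, 0 of the 12038 genes passed, although 3745, 2602 and 3078 had an unadjusted p-value under 0.05, and without DMSO replicate 2, 1883 passed. In these fits the library left alone in its group is assumed to vary like the other group.

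**Figure D1:**
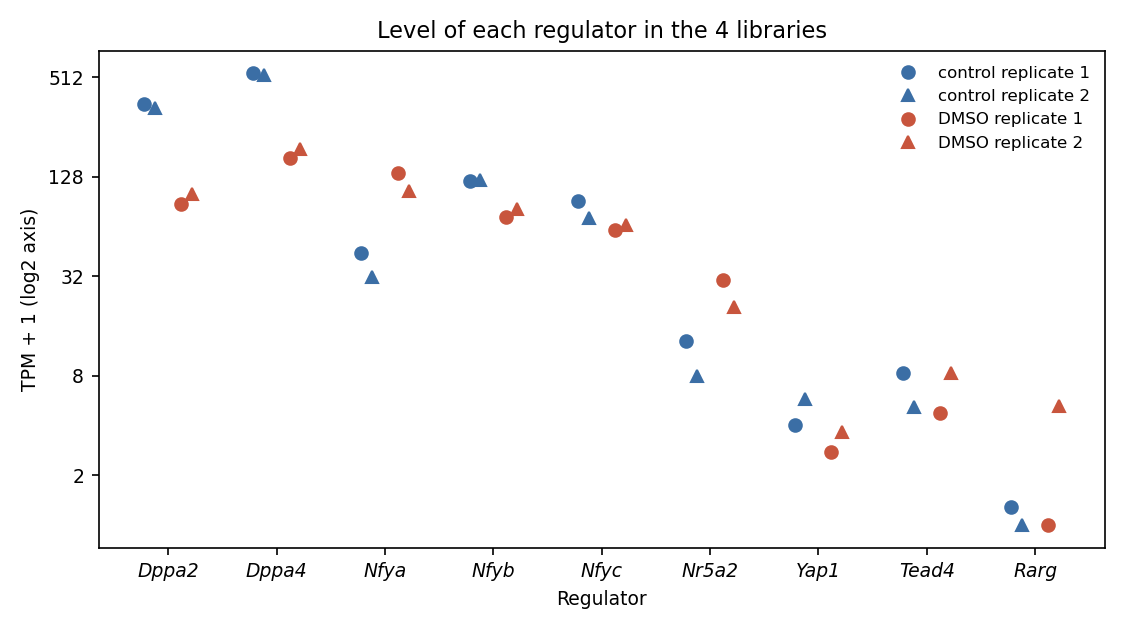
TPM + 1 on a log2 axis for each regulator, with one point per library (blue for control, red for DMSO, circles for replicate 1 and triangles for replicate 2). Dppa2 and Dppa4 sit lower in both DMSO libraries and Nfya and Nr5a2 higher, while Tead4 overlaps between the groups and Rarg is above 1 TPM in DMSO replicate 2 alone.

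**Figure D2:**
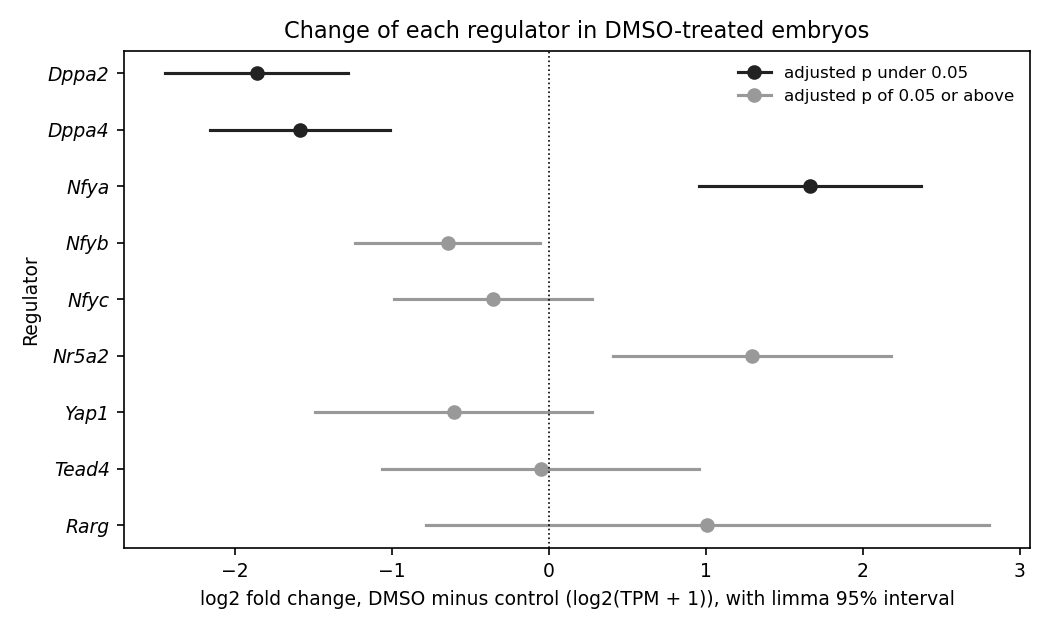
Log2 fold change of each regulator (DMSO minus control, on log2(TPM + 1)) with the 95% interval of limma, in black where the adjusted p-value was under 0.05. The intervals of Nfyc, Yap1, Tead4 and Rarg include 0, and those of Nfyb and Nr5a2 do not, although neither passed after adjustment.

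Dppa2 and Dppa4 were the most abundant of the 9 in control embryos and fell together. Dppa4 was at 538 and 525 TPM in control embryos, against 166 and 188 TPM after DMSO. Dppa2 was at 352 and 330 TPM in control embryos, against 86.8 and 99.8 TPM after DMSO. Both control libraries were thus far above both DMSO libraries for each gene, and the replicates of a group lay close together. The DMSO mean was 0.333 of the control mean for Dppa4 and 0.274 of it for Dppa2. Over the 4 pairs of a control with a DMSO library, the control value was 2.79 to 3.25 times the DMSO value for Dppa4 and 3.31 to 4.05 times for Dppa2. The log2 fold change was -1.58 for Dppa4 (SE 0.24, adjusted p = 0.0185 with limma) and -1.86 for Dppa2 (SE 0.24, adjusted p = 0.0181 with limma). Dppa2 stood at the 4.05th percentile of the fold changes of all genes tested and Dppa4 at the 7.17th. Without control replicate 1, control replicate 2 or DMSO replicate 1, the adjusted p-values lay between 0.0827 and 0.155 for Dppa2 and between 0.0870 and 0.160 for Dppa4, while the fold changes stayed between -1.96 and -1.76 and between -1.68 and -1.49 without any one library.

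The genes for this pair are neighbours on chromosome 16 of GRCm38, both on the plus strand, Dppa4 (ENSMUSG00000058550) from 48283733 to 48294237 and Dppa2 (ENSMUSG00000072419) from 48303908 to 48319723. They lie 9670 bases apart, and GENCODE M21 places 0 other genes between them. Within 300000 bases on either side the table holds 3 other genes, of which Morc1, a germline gene that silences transposons, was the one tested. Morc1 was at 12.1 and 8.81 TPM in control embryos, against 8.78 and 5.34 TPM after DMSO, a log2 fold change of -0.52 that did not pass (limma adjusted p = 0.304). The ratio of Dppa2 to Dppa4 RNA was 0.653 and 0.629 in control embryos and 0.524 and 0.530 in DMSO-treated embryos. It was lower in both DMSO libraries, a difference of -0.28 on the log2 scale, and an exact permutation test of 2 libraries against 2 cannot go below p = 0.333, the value it took here (two-sided). Of the 31-base words of their transcripts, 33.8% for Dppa2 and 40.1% for Dppa4 also occur in other genes. Among the genes with the most words in common, those in the table were processed pseudogenes, Gm9788 and Gm8023 for Dppa2 and Gm14058 and Gm5501 for Dppa4, and they were listed at no more than 1.56 TPM in any library. Added to Dppa4 they gave 539, 526, 166 and 189 TPM in control replicates 1 and 2 and DMSO replicates 1 and 2, and added to Dppa2 they gave 353, 330, 87.2 and 100.3 TPM.

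Some genes followed nearly the same course over the 4 libraries. The gene nearest to Dppa4, by Euclidean distance of log2(TPM + 1), was Lyar, which encodes a nucleolar protein of growing cells, at a distance of 0.0854, followed by Rnf7 at 0.212 and Bnip3, a gene of mitochondrial turnover, at 0.296. Lyar was at 557 and 518 TPM in control embryos, against 159 and 193 TPM after DMSO. The genes nearest to Dppa2 were Gm10343 at a distance of 0.182, Pramel7, a member of the Prame-like family, at 0.221 and Rwdd1 at 0.305. These distances join level and change, and over 4 libraries they describe likeness only.

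The subunits of NF-Y did not move together. Nfya (ENSMUSG00000023994, chromosome 17 from 48386885 to 48409906, minus strand) encodes the subunit that contacts the CCAAT box. It was at 43.1 and 30.8 TPM in control embryos, against 133 and 104 TPM after DMSO, so that both DMSO libraries were above both control libraries. Its DMSO mean was 3.21 times its control mean, with ratios from 2.41 to 4.34 over the 4 pairs of libraries, and its log2 fold change was 1.67 (SE 0.30, adjusted p = 0.0221 with limma). Without control replicate 1, control replicate 2 or DMSO replicate 1 the adjusted p was between 0.0874 and 0.166, and without any one library the log2 fold change stayed between 1.43 and 1.90.

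Nfyb (ENSMUSG00000020248, chromosome 10 from 82748701 to 82764144, minus strand) and Nfyc (ENSMUSG00000032897, chromosome 4 from 120757438 to 120831572, minus strand) encode the histone-fold pair. Nfyb was at 120 and 121 TPM in control embryos, against 72.4 and 81.1 TPM after DMSO. The groups did not overlap, but the log2 fold change of -0.65 (standard error 0.25) did not pass, with a limma adjusted p of 0.101. Its 95% interval ran from -1.23 to -0.06, and it was -0.38 under quantile normalization. With a block for replicate number, which no label ties to a batch, Nfyb passed (limma adjusted p = 0.0317). Nfyc was at 89.7 and 71.3 TPM in control embryos, against 60.2 and 64.7 TPM after DMSO. Its DMSO libraries were both below its control libraries, by a margin smaller than the gap between the control libraries, and its log2 fold change of -0.35 did not pass either (limma adjusted p = 0.339, 95% interval -0.98 to 0.27). It was -0.19 without control replicate 1 and -0.06 under quantile normalization. Of the 31-base words of Nfyc 27.1% occur in other genes, whereas for Nfya and Nfyb the share was 0.147% and 0.039%. Gm9144, a processed pseudogene that shares words with Nfyc, was listed at 0.105 TPM in control replicate 1 and at 0 in the other libraries.

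The summed RNA of the 3 subunits was 253 and 223 TPM in the control libraries and 266 and 249.6 TPM in the DMSO libraries, and these ranges overlap (exact permutation p = 0.667, two-sided). Its make-up differed. Nfya was 17.1% and 13.8% of the sum in control embryos and 50.2% and 41.6% in DMSO-treated embryos. Nfyb took 47.4% and 54.2% in control embryos and 27.2% and 32.5% in DMSO-treated embryos, and Nfyc 35.5% and 32.0% and then 22.6% and 25.9%. Nfya passed from the least to the most abundant of the 3 subunit RNAs, and protein was not measured. The ratio of Nfya to Nfyb was 0.360 and 0.254 in control embryos, against 1.84 and 1.28 after DMSO. On the log2(TPM + 1) scale this ratio was 2.31 higher in DMSO-treated embryos and that of Nfya to Nfyc 2.02 higher, while that of Nfyb to Nfyc differed by -0.29. Each of these 3 differences took the smallest exact permutation p that 2 libraries against 2 allow, 0.333, and they were among 5 ratios compared.

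**Figure D3:**
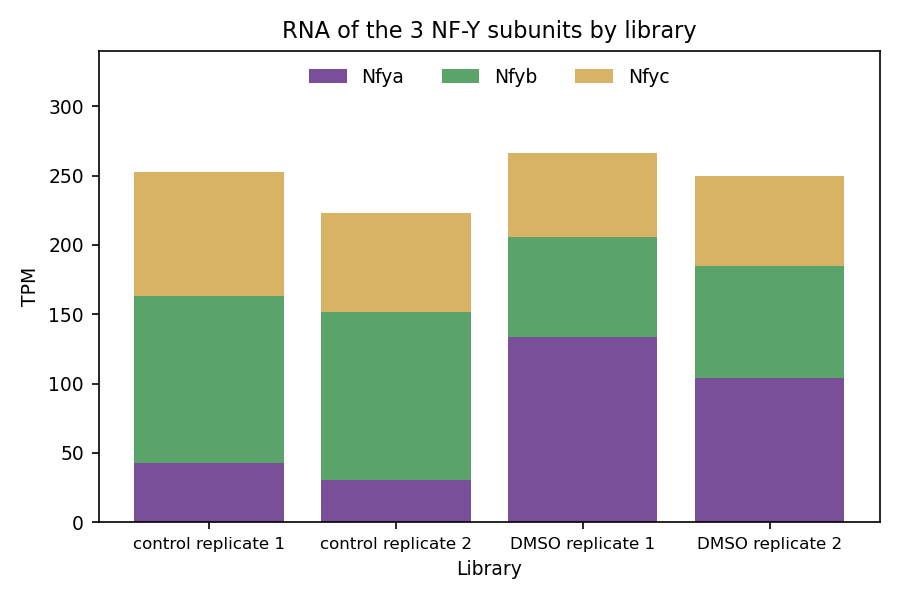
Stacked TPM of Nfya, Nfyb and Nfyc in each of the 4 libraries. The full height runs from 223 to 266 TPM, and the Nfya part is 30.8 and 43.1 TPM in the control libraries against 104 and 133 TPM in the DMSO libraries.

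NF-Y reads the letters CCAAT, and the genes of its own subunits differ in how often these letters occur near their starts. RefSeq windows of GRCm38.p6, from 250 bases before to 50 bases after an annotated start, matched 6 of the 9 regulators, all but Dppa2, Dppa4 and Tead4, with 12 windows in all. CCAAT or its reverse complement ATTGG occurs in 37.4% of all 32851 windows and in 4 of these 12. Nfya has 3 windows with 0, 0 and 1 match, Nfyb has 1 window with 0, and Nfyc has 3 windows with 0, 5 and 3. The Nfyc window with 5 matches and one Nfya window with 0 matches are printed to show that contrast. Capitals mark the letters matched, each sequence reads 5′ to 3′ on the minus strand, on which all 3 genes lie, and a match describes the letters and not binding.
Nfya, chr17:48409705-48410004: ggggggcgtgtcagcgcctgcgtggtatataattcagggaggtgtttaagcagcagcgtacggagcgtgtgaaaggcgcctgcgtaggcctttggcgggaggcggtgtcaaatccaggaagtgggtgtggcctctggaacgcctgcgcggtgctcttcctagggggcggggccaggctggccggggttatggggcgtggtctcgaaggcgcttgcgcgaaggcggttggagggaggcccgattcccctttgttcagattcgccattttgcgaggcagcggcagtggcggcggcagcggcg
Nfyc, chr4:120825160-120825459: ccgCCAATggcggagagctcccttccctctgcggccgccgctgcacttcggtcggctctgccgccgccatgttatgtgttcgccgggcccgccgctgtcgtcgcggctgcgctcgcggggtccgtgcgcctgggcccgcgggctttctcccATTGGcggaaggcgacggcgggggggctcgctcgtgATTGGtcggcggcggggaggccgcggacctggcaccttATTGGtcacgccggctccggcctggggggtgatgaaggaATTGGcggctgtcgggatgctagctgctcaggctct

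Nr5a2 and Rarg are the nuclear receptors of the group. Nr5a2 (ENSMUSG00000026398, chromosome 1 from 136842571 to 136960448, minus strand) was at 12.1 and 7.03 TPM in control embryos, against 29.3 and 19.9 TPM after DMSO. Both DMSO libraries were above both control libraries, and the ratio over the 4 pairs ran from 1.65 to 4.16. Its log2 fold change was 1.30 (standard error 0.37), which did not pass the test (limma adjusted p = 0.0516). The call turned on the processing. The limma adjusted p was 0.0439 with median-ratio scaling between libraries and 0.0351 after quantile normalization. It was 0.0374 when the test was limited to genes averaging 5 TPM or more, and 0.146 with no filter. With a block for replicate number, which no label ties to a batch, it was 0.00748. One of its 2 RefSeq windows holds 1 CCAAT match and 1 match to GGAATG, the letters read by TEAD proteins, which occur with the reverse complement CATTCC in 14.7% of all windows. It is printed with both in capitals, on the minus strand, because it is the one window among the 12 with letters of 2 of the factors described here.
Nr5a2, chr1:136953581-136953880: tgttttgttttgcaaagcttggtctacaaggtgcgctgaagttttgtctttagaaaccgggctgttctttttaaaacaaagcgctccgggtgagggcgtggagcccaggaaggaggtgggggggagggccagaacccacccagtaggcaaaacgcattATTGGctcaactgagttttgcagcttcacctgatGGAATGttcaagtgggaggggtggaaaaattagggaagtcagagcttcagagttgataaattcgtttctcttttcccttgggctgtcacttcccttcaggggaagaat

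Rarg (ENSMUSG00000001288, chromosome 15 from 102234938 to 102257517, minus strand) was listed at 0.296 and 0 TPM in control embryos, against 0 and 4.26 TPM after DMSO. Only in DMSO replicate 2 was it listed above 1 TPM. The log2 fold change of 1.01 (SE 0.75, adjusted p = 0.338 with limma) turned to -0.19 without DMSO replicate 2, and these data give no direction for Rarg. The related receptor Rara was at 3.11 and 2.81 TPM in control embryos, against 3.67 and 4.35 TPM after DMSO, and its log2 fold change of 0.34 did not pass (limma adjusted p = 0.456). Among the partners of retinoic acid receptors, Rxrb was at 1.61 and 4.66 TPM and then at 0.442 and 1.49 TPM, and Rxra and Rxrg had means below 1 TPM and were not tested.

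Several genes of the retinoic acid pathway rose. Of 16 listed genes 15 were found and 8 were tested, and 5 of these rose while 0 fell, beside 6.42% of all genes tested that rose. One of the 5, Aldh1a2, averaged under 1 TPM in control embryos and was tested only because of its level after DMSO, and of the 7 genes at 1 TPM or more in both groups 4 rose. The 5 were Fabp5 and Crabp2, which carry retinoic acid in the cell, Aldh1a2, which makes it, and Rdh11 and Dhrs3, which convert between retinol and retinal. Fabp5 was at 15.7 and 8.71 TPM in control embryos, against 60.3 and 34.9 TPM after DMSO, a log2 fold change of 1.88 (SE 0.40, adjusted p = 0.0291 with limma). Crabp2 went from 7.15 and 5.71 TPM to 24.2 and 16.1 TPM (log2 fold change 1.49, limma adjusted p = 0.0316), and Aldh1a2 from 0.925 and 0.479 TPM to 6.29 and 3.27 TPM (1.72, limma adjusted p = 0.0337). Dhrs3 and Rdh11 had log2 fold changes of 1.77 and 1.80 (limma adjusted p = 0.0415 for both). For Aldh1a3, which also makes retinoic acid, the log2 fold change of 0.66 did not pass (limma adjusted p = 0.157). Rdh10, which oxidizes retinol and was the most abundant gene of the list, was at 29.9 and 55.2 TPM and then at 38.5 and 43.8 TPM, within the spread of the control libraries. The median log2 fold change of the 8 was 1.61, and that of the 7 at 1 TPM or more in both groups was 1.49. With no filter on low values, over 14 genes, it was 0.26. Rdh11 was lost with a pseudocount of 0.1 TPM (limma adjusted p = 0.0503) and with eBayes without a trend (0.0501).

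Of 24 other nuclear receptors and their coregulators 12 averaged 1 TPM or more and were tested, 1 rose and 0 fell, beside 6.42% and 14.1% of all genes tested, with a median log2 fold change of 0.01. That median ran from -0.15 to 0.19 without any one library and was -0.24 with the 5 TPM filter, so it gives no direction. Rxrb averaged under 1 TPM after DMSO and was tested only because of its control level, and over the other 11 the median was 0.08. The gene that rose was Ncoa2, a coactivator of nuclear receptors, at 1.43 and 1.64 TPM in control embryos, against 8.31 and 5.19 TPM after DMSO (log2 fold change 1.58, SE 0.36, adjusted p = 0.0320 with limma). Ncor1, the corepressor and the most abundant of the list, was at 111 and 84.5 TPM and then at 107 and 80.4 TPM, its groups overlapping. The coactivators Med1, at 58.4 and 33.5 TPM and then at 85.2 and 57.0 TPM, and Ncoa3, at 54.1 and 42.6 TPM and then at 40.5 and 34.3 TPM, did not pass either (limma adjusted p = 0.226 and 0.361). Nr5a1, the closest relative of Nr5a2, was listed at no more than 0.0439 TPM in any library, and Nr0b1 and Vdr were listed at 0 in all 4.

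Yap1 and Tead4 were listed at low values in all libraries and neither passed the test. Yap1 (ENSMUSG00000053110, chromosome 9 from 7931999 to 8004596, minus strand) was at 3.05 and 4.80 TPM in control embryos, against 1.77 and 2.67 TPM after DMSO. Both DMSO values were below both control values, and the log2 fold change was -0.61 (SE 0.37, adjusted p = 0.252 with limma, 95% interval -1.49 to 0.28). It was -0.34 without control replicate 2 and -0.40 without DMSO replicate 1. Tead4 (ENSMUSG00000030353, chromosome 6 from 128224288 to 128300823, minus strand) was at 7.33 and 4.18 TPM in control embryos, against 3.80 and 7.35 TPM after DMSO. Its groups overlapped fully, and its 95% interval, from -1.06 to 0.96 around a log2 fold change of -0.05, leaves room for a change of about 2-fold either way. The ratio of Tead4 to Yap1 ran from 0.870 to 2.41 in control embryos and from 2.15 to 2.76 in DMSO-treated embryos (exact permutation p = 0.667, two-sided).

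In the Hippo pathway around them 3 of 18 tested genes fell and 0 rose, a share near the 14.1% of all genes tested that fell. The median log2 fold change was 0.01, or -0.14 to 0.15 without any one library. Of the 18, 1 averaged under 1 TPM in control embryos and was tested only because of its level after DMSO. Over the other 17 genes the median was -0.003. Stk4, one of the kinases at the head of the pathway, was at 24.1 and 24.2 TPM in control embryos, against 5.36 and 7.47 TPM after DMSO (log2 fold change -1.78, SE 0.30, adjusted p = 0.0216 with limma). Nf2, which encodes the membrane scaffold Merlin, went from 62.8 and 64.6 TPM to 18.8 and 32.3 TPM (log2 fold change -1.33, limma adjusted p = 0.0377), and Ajuba, a LIM protein that binds the LATS kinases, from 11.0 and 9.08 TPM to 2.47 and 3.26 TPM (log2 fold change -1.51, limma adjusted p = 0.0291). Nf2 was lost under median-ratio scaling (limma adjusted p = 0.0509), quantile normalization (0.0703) and eBayes without a trend (0.0503). Wwc2, of the KIBRA family and the most abundant of the list, was at 80.6 and 59.0 TPM and then at 106 and 87.3 TPM, and Mob1b, a coactivator of the LATS kinases, at 34.3 and 50.8 TPM and then at 47.4 and 38.4 TPM, and neither passed (limma adjusted p = 0.242 and 0.948). The TEAD relative Tead2 was at 14.1 and 13.0 TPM and then at 24.9 and 18.8 TPM, and Tead1 at 8.01 and 17.9 TPM and then at 9.17 and 9.96 TPM, and neither passed (limma adjusted p = 0.153 and 0.600). Of 12 textbook targets of YAP and TEAD 4 had a mean of at least 1 TPM. With limma 0 of these passed at the adjusted threshold, beside 20.5% of all genes tested. An unadjusted p-value under 0.05 was found for 1 of the 4, beside 4835 of the 12038 genes tested. The most abundant were Birc5, at 6.54 and 6.84 TPM and then at 8.10 and 6.43 TPM, and the keratins Krt18, at 5.41 and 1.62 TPM and then at 6.51 and 4.45 TPM, and Krt8, at 6.20 and 4.47 TPM and then at 2.68 and 3.53 TPM. Ccn2 was listed at 0 in all libraries, and Cdx2, a trophectoderm gene, was listed at no more than 0.2 TPM.

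Of 27 other factors known from zygotic genome activation 25 were tested, 2 rose and 4 fell, shares near the 6.42% and 14.1% of all genes tested, with a median log2 fold change of -0.20 that turned to 0.06 under quantile normalization and was -0.36 without DMSO replicate 1. Of 5 homeobox genes of the Obox family 2 rose and 1 fell. Obox5 was at 240 and 129 TPM in control embryos, against 1221 and 646 TPM after DMSO (log2 fold change 2.33, SE 0.42, adjusted p = 0.0223 with limma), and Obox1 went from 95.6 and 59.3 TPM to 329.6 and 194 TPM (log2 fold change 1.73, limma adjusted p = 0.0289). Obox6 fell from 602 and 690 TPM to 162 and 194 TPM (log2 fold change -1.86, SE 0.25, adjusted p = 0.0181 with limma), close to the change of Dppa2. Obox3 was at 118 and 93.0 TPM and then at 115 and 91.5 TPM, and Obox2 at 1.87 and 0.351 TPM and then at 11.9 and 3.92 TPM, and neither passed (limma adjusted p = 0.933 and 0.0532). Of the words of Obox1 71.2%, of Obox5 38.7% and of Obox6 14.6% occur in other genes, so the split of reads inside the family is uncertain. The chromatin remodelers Smarca4 and Smarca5 and the transcription factor Klf4 fell as well. Smarca5 was at 317 and 335 TPM and then at 148 and 171 TPM (log2 fold change -1.03, limma adjusted p = 0.0338), Smarca4 at 55.2 and 43.2 TPM and then at 23.0 and 19.4 TPM (-1.17, limma adjusted p = 0.0364), and Klf4 at 44.6 and 29.5 TPM and then at 14.3 and 17.7 TPM (-1.14, limma adjusted p = 0.0496). These 3 did not pass after quantile normalization, with adjusted p-values of 0.0505 for Smarca4, 0.0689 for Smarca5 and 0.0696 for Klf4. Klf4 was also lost with a pseudocount of 0.1 TPM, median-ratio scaling and eBayes without a trend, and Smarca5 with the last of these. Dppa3, a maternal factor that protects DNA methylation and the most abundant of the list, was at 11639 and 15346 TPM and then at 10828 and 15216 TPM, and its groups overlapped. Trim28, a corepressor that silences transposons, was at 525 and 566 TPM and then at 304 and 381 TPM, which did not pass (limma adjusted p = 0.0934). Duxf3, the mouse Dux gene that DPPA2 and DPPA4 are known to activate in stem cells, was listed at no more than 0.37 TPM in any library and was not tested.

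The genes known for transcription at the 2-cell stage, several of which depend on DPPA2 and DPPA4 in embryonic stem cells, included 7 that rose while Dppa2 and Dppa4 fell. Of 23 genes 22 were found and 21 tested, of which 7 rose and 1 fell, beside 6.42% and 14.1% of all genes tested, and the median log2 fold change was 0.78, or 0.49 without DMSO replicate 1. Zfp352 was at 143 and 89.0 TPM in control embryos, against 551 and 373 TPM after DMSO (log2 fold change 2.00, SE 0.34, adjusted p = 0.0209 with limma). Tcstv1 went from 160 and 103 TPM to 567 and 380 TPM (log2 fold change 1.84, limma adjusted p = 0.0222), Tcstv3 from 297 and 209 TPM to 716 and 574 TPM (1.36, limma adjusted p = 0.0281) and Usp17lc from 60.2 and 41.7 TPM to 138 and 113 TPM (1.30, limma adjusted p = 0.0319). The heat shock genes Hspa1b and Hspa1a, among the first transcribed by the embryo, had log2 fold changes of 1.83 and 1.46 (limma adjusted p = 0.0209 and 0.0393). Spz1, the seventh that rose, and Tdpoz2, the 1 that fell, are named after their values were seen, with log2 fold changes of 1.08 and -1.11 (limma adjusted p = 0.0335 and 0.0482). Tdpoz2 was lost with quantile normalization, median-ratio scaling, a pseudocount of 0.1 TPM and eBayes without a trend, at adjusted p-values from 0.0502 to 0.0602, and Spz1 with eBayes without a trend (0.0530). Sp110 was the most abundant of the list, at 698 and 699 TPM and then at 747 and 776 TPM, and did not pass (limma adjusted p = 0.707), nor did Tmem92, at 488 and 335 TPM and then at 715 and 605 TPM (0.117). Shared sequence makes several of these uncertain, with 51.0% of the words of Tcstv3, 60.7% of Usp17lc, 70.1% of Hspa1a and 68.1% of Hspa1b in other genes, against 21.5% of Zfp352 and 28.6% of Tcstv1. Zscan4c was at 40.0 and 33.3 TPM and then at 77.3 and 51.8 TPM, which did not pass (limma adjusted p = 0.108), and 91.5% of its words are shared.

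**Figure D4:**
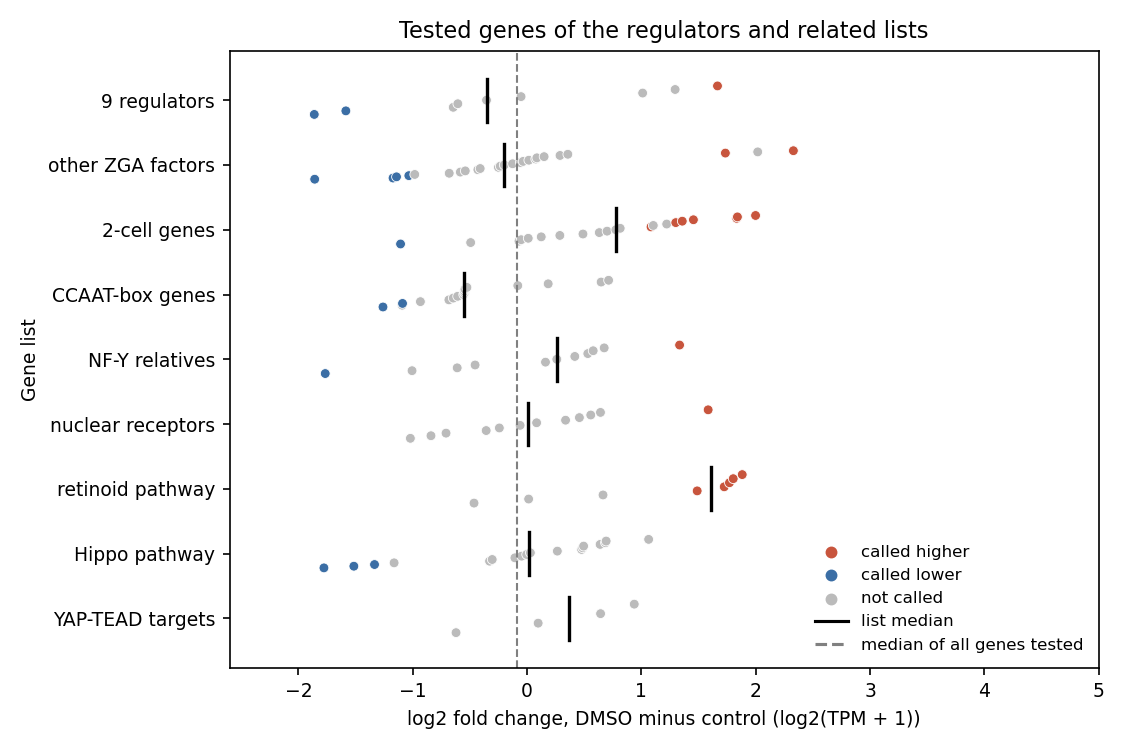
Log2 fold change (DMSO minus control, on log2(TPM + 1)) of each tested gene of the 9 regulators and of 8 related lists, red for genes that rose, blue for genes that fell and grey for the rest, with the list median as a black bar and the median of all genes tested, -0.09, as a dashed line. The retinoid list has 5 red points and the 2-cell list 7, while the medians of the Hippo and nuclear receptor lists are both 0.01. The list of NF-Y relatives also holds Nfi and Cebp genes, which lack the histone fold.

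Among genes known to be bound by NF-Y at a CCAAT box, 2 fell and 0 rose. Of 20 genes 19 were found and 17 tested, 14 of them below 0, beside 53.2% of all genes tested, with a median log2 fold change of -0.55. One of the 14, Sqle, named after its values were seen, averaged under 1 TPM after DMSO and was tested only because of its control level, and over the other 16 genes the median was also -0.55. The 2 that fell are a share near the 14.1% of all genes tested. Cdc25c, a phosphatase that starts mitosis, was at 185 and 133 TPM in control embryos, against 64.8 and 65.2 TPM after DMSO (log2 fold change -1.26, SE 0.27, adjusted p = 0.0300 with limma). Top2a, a DNA topoisomerase, went from 276 and 183 TPM to 105 and 105 TPM (log2 fold change -1.09, limma adjusted p = 0.0433). After quantile normalization the adjusted p-values were 0.0518 for Cdc25c and 0.0869 for Top2a, and neither passed. Top2a was also lost with a pseudocount of 0.1 TPM (0.0507) and with eBayes without a trend (0.0640). Ccnb1, the mitotic cyclin B1, was the most abundant of the list at 1078 and 949 TPM and then at 676 and 586 TPM, with groups that did not overlap and an adjusted p of 0.0869. Ccna2, at 759 and 730 TPM and then at 506 and 515 TPM, and Cdk1, at 738 and 598 TPM and then at 496 and 412 TPM, also had groups that did not overlap and did not pass (limma adjusted p = 0.131 and 0.155). Among genes listed as relatives of NF-Y, Drap1, a histone-fold partner in a repressor of transcription, rose. It went from 14.8 and 11.1 TPM to 39.4 and 29.2 TPM (log2 fold change 1.33, limma adjusted p = 0.0335). Its partner Dr1 was at 122 and 130 TPM and then at 48.9 and 79.2 TPM, which did not pass (limma adjusted p = 0.0612). Cebpz, once cloned as a CCAAT-binding factor, fell from 101 and 109 TPM to 22.3 and 40.6 TPM (log2 fold change -1.76, limma adjusted p = 0.0245). Pole4, a histone-fold subunit of DNA polymerase epsilon and the most abundant relative, was at 595 and 626 TPM and then at 435 and 456 TPM, which did not pass (limma adjusted p = 0.190). Drap1 and Cebpz were the 2 calls among the 11 tested genes of this list, a share near the 20.5% of all genes tested. The list mixes histone-fold genes with Nfi and Cebp genes, Cebpz among them. The latter were grouped by a name or site tied to CCAAT and lack the histone fold.

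The letters read by these factors were also counted across all promoters. RefSeq windows matched 8479 of the 12038 tested genes by symbol. Of the 3732 tested genes with CCAAT or ATTGG in any of their windows 6.43% rose and 13.4% fell, and of the 4747 without it 6.02% rose and 16.1% fell. The median log2 fold change was -0.09 with and -0.13 without these letters. TCAAGGNCA, the letters read by NR5A2, or its reverse complement was in 1.62% of windows, and of the 115 tested genes that have it 6.96% rose and 16.5% fell, beside 6.19% and 14.9% of those without. For GGAATG or CATTCC these shares were 6.51% and 15.6% of 1167 genes, beside 6.15% and 14.8%. A pair of AGGTCA repeats 5 bases apart, the usual site of retinoic acid receptors, was in 3 of the 32851 windows and in 0 windows of tested genes. Genes with several starts have more windows in which letters can occur, and overlap between the motifs was not removed.

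The order of the 9 levels changed with treatment. In control embryos the mean TPM fell from Dppa4 to Dppa2, Nfyb, Nfyc, Nfya, Nr5a2, Tead4, Yap1 and Rarg. The values of Nr5a2 and Tead4 and those of Tead4 and Yap1 overlapped, and the other neighbours did not. In DMSO-treated embryos the order was Dppa4, Nfya, Dppa2, Nfyb, Nfyc, Nr5a2, Tead4, Yap1 and Rarg, with Yap1 and Rarg overlapping. Among the 12038 tested genes ranked by TPM, Dppa4 was at rank 205 and 220 in control embryos, against 648 and 541 after DMSO, and Dppa2 at 332 and 371 and then at 1256 and 1039. Nfya moved from rank 2554 and 3041 to rank 837 and 995, and Nr5a2 from 5288 and 6225 to 2988 and 3665. Nfyb, at ranks 1108 and 1033 and then 1468 and 1270, and Nfyc, at 1451 and 1676 and then 1702 and 1542, kept closer to their places. Ranks do not depend on the scaling between libraries.

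Markers were read to check what the libraries hold. All 6 markers of the 2-cell embryo were present, summing to 709 and 485 TPM in the control libraries and to 2057 and 1499 TPM in the DMSO libraries. Tcstv3 was the most abundant, and 4 of the 6 rose, beside 6.42% of all genes tested. These 6 are also in the list of 2-cell genes above, so the 4 repeat calls already given there. The 12 oocyte markers summed to 1276 and 839 TPM and then to 3112 and 2382 TPM, with Oosp1 as the most abundant. Of the 11 oocyte markers tested, Bmp15 and Oosp1 rose and 0 fell, beside the same 6.42% and 14.1% of all genes tested, and Nlrp5, a maternal effect gene, was listed at no more than 0.14 TPM. The 6 sperm markers summed to 2.96 and 3.38 TPM and then to 13.5 and 8.69 TPM, with Prm2 as the most abundant and Tnp2 at 0 in all libraries, and of the 2 that were tested Prm2 rose, while Tnp1, which also passed, averaged under 1 TPM in control embryos, was tested only because of its level after DMSO, and was lost with a pseudocount of 0.1 TPM (limma adjusted p = 0.0845). The summed levels of the oocyte and sperm markers were higher in both DMSO libraries, as were Nfya and the 2-cell and retinoid genes that rose, and their part in those results was not tested. The 10 markers of cumulus and granulosa cells summed to no more than 2.73 TPM in any library, with Tnfaip6 as the most abundant and Amh, Inhba and Lhcgr at 0. Blood markers summed to 13.4 and 4.11 TPM and then to 11.8 and 19.6 TPM, with Hba-a2 as the most abundant and Hbb-bt at 0. Genes of later stages summed to 23.0 and 17.2 TPM and then to 26.8 and 25.3 TPM, with Nanog as the most abundant. With limma 0 of the 5 tested passed, beside 20.5% of all genes tested. An unadjusted p-value under 0.05 was found for 2 of the 5, beside 4835 of the 12038 genes tested. Of those 2, 1 averaged under 1 TPM after DMSO and was tested only because of its control level. Pou5f1, a pluripotency factor, was listed at no more than 0.24 TPM in any library.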

How the data were processed

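RNA of whole 2-cell embryos was reverse transcribed and amplified with a low-input SMARTer kit, and sequenced on a HiSeq 2500 in 2 control and 2 DMSO libraries. The authors mapped reads to the Ensembl transcriptome of GRCm38 (mm10) with kallisto, which splits reads between transcripts that share sequence, and summed them per gene with tximport. The values deposited are TPM for 30049 genes, of which 29589 were given a symbol from GENCODE M21. The submitters' processing notes also name STAR, SAMtools and bedtools, and no versions are given in the sources used here. TPM keeps no depth, so no counting interval is given.

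The regulators and the gene lists were chosen with earlier results of these data known. For each gene averaging 1 TPM or more, log2(TPM + 1) was fitted by group with limma 3.58.1 (R 4.3.3), using eBayes with a trend on mean level and without a block for replicate number, and p-values were adjusted by Benjamini-Hochberg with a threshold of 0.05. The fit was checked on simulated data. Fold changes on this scale understate changes of low genes. Named in each list are the genes called, up to 6 by size of change, and the 3 most abundant, and in each marker list the most abundant gene and those at 0. Other genes named, such as Rara, Rxrb, Nr5a1, Tead1, Tead2, Duxf3, Pou5f1, Nlrp5, Cdx2, Zscan4c, Obox2, Obox3 and the called oocyte and sperm markers, were added for their kinship or role. Shared words were counted on GENCODE M21 transcripts, on either strand. Alternatives were a pseudocount of 0.1 TPM, filters of none and 5 TPM, quantile normalization, median-ratio scaling, eBayes without a trend, the replicate block and leaving out each library. Python 3.11.15, pandas 2.3.3, numpy 2.4.6 and matplotlib 3.10.9 served the other steps.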

Additional observations from a re-analysis of the deposited data

How the results depend on the processing

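With no filter on low values, which made 22257 genes tested, limma called 0 genes and 0 of the 9 regulators, although 5368 genes and 5 regulators had an unadjusted p-value under 0.05. The count of calls was within 1.5 times the 2470 reported under the other processing alternatives without a block. Leaving out 1 library gave 0 to 1883 calls in all and 0 to 3 regulators, DMSO replicate 2 being the one whose loss kept them. Under the 7 processing alternatives the 9 regulators kept their direction, except that Yap1 and Rarg were under the filter of 5 TPM and have no value there. Of the other named genes, Ncor1 turned to 0.22 and Obox3 to 0.25 under quantile normalization, and Obox3 to 0.014 under median-ratio scaling. Leaving out 1 library turned the direction for 10 genes that had not passed, with ranges of -0.45 to 0.35 for Tead4, -0.84 to 0.23 for Tead1, -0.19 to 2.21 for Rarg, -0.30 to 0.19 for Dppa3, -0.21 to 0.14 for Obox3, -0.27 to 0.14 for Ncor1, -0.42 to 0.45 for Rdh10, -0.25 to 0.31 for Mob1b, -0.0024 to 1.29 for Krt18 and -0.049 to 0.24 for Birc5 on the log2 scale. The cause was not tested.

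The groups share the replicate numbers 1 and 2, but nothing in the labels says that a number marks a shared batch. Libraries of the same number deviated from their group means with r = 0.354 across genes, which are not independent replicates. With the replicate block, 5132 genes and 5 regulators were called, Nfyb (limma adjusted p = 0.0317) and Nr5a2 (0.00748) joining Dppa2, Dppa4 and Nfya. Depth could not be weighed, because TPM keeps none.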
